A study of Mus musculus with 12 samples.

Results

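Small RNA of the mouse hippocampus was compared between animals killed 0.5 h after electroconvulsive shock (ECS) and untreated animals. ECS passes a brief current across the head and depolarizes neurons throughout the brain at the same moment. The comparison rests on 4 of the 12 libraries of the series, the 2 labelled 0.5 h following ECS and the 2 labelled untreated (0 h), each made from the hippocampus of a single C57BL/6NCrl mouse. According to the methods the mice were males of 6 to 8 weeks, and the untreated mice stayed in their home cage. No sham-treated group is among the samples, so handling and current cannot be told apart. The libraries form 2 time courses, marked by the replicate number in the labels, and each course gives 1 pair. A table of the study gives the untreated libraries the opposite numbers, whereas the deposited totals match another of its tables under the numbers of the labels, which were kept here. If the numbers were exchanged, both pairs and every pair ratio would change, except that an arm whose 2 untreated and 2 ECS values do not overlap keeps its direction. The other 8 libraries were taken 1, 3, 6 and 24 h after ECS.

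The unit followed is the arm of a miRNA hairpin, since either strand of the duplex cut from the hairpin can be loaded into a silencing complex. Of the 1065 arms with a count, 470 had 10 or more counts in at least 2 of the 12 libraries and were tested. Of these 470 arms, 231 changed in the same direction in both pairs, which is 49.1% of the arms tested. They comprised 131 arms that were higher at 0.5 h in both pairs (27.9%) and 100 arms that were lower (21.3%). The remaining arms were 227 that moved in opposite directions (48.3%) and 12 with no change in a pair. The selection uses the direction only, so these counts describe the arms and test nothing.

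A miRNA pairs through its seed, bases 2 to 8 counted from the 5′ end, with sites in messenger RNAs, and thereby lowers their translation and stability. In neurons several miRNAs act close to synapses, and the transcription or decay of some is known to follow neuronal activity. A mature miRNA usually lives for many hours, although faster decay has been described for some of them in neurons. The 0.5 h time point lies in the window in which immediate early genes such as Arc and Fos are transcribed after a seizure.

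The mature sequences below belong to the arms on which the results turn, first families whose members were higher at 0.5 h and then families whose members were lower. They are the RefSeq entries of assembly GRCm38.p6, written 5′ to 3′ with the seed in capitals. The miR-7, miR-221/222 and miR-29 families are shown because every tested member with the same seed was higher in both pairs:
miR-7-5p: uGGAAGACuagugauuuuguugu
miR-7b-5p: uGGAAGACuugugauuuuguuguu
miR-221-3p: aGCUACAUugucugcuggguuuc
miR-222-3p: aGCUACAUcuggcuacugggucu
miR-29a-3p: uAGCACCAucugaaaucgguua
miR-29b-3p: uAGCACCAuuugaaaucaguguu
miR-29c-3p: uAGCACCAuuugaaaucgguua

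The next 3 are single arms that were higher in both pairs and are described below as an arm of the miR-17-92 cluster, a member of the miR-34 family and a synaptic miRNA:
miR-17-3p: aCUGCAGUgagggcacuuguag
miR-34b-5p: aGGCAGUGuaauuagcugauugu
miR-138-5p: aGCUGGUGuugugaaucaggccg

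The arms that were lower in both pairs include 2 families with a shared seed and both arms of miR-181b, of which the 3′ arm shown is that of the miR-181b-1 hairpin:
miR-27a-3p: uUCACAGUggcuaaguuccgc
miR-27b-3p: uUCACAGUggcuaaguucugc
miR-30a-3p: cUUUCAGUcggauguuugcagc
miR-30e-3p: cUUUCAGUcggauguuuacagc
miR-181b-5p: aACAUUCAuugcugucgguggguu
miR-181b-3p: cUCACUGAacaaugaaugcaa

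Within these families the mature sequences differ by few bases. Counting positions from 1 at the 5′ end and giving the base of the first-named arm first, miR-27a-3p and miR-27b-3p differ by C19U, miR-30a-3p and miR-30e-3p by G18A, miR-29a-3p and miR-29c-3p by C10U, and miR-7-5p and miR-7b-5p by A10U over their first 23 bases. A tag of 18 nt that starts at base 1 is therefore shared by miR-27a-3p and miR-27b-3p and was split equally between them. RefSeq mature sequences were matched for 399 of the 470 arms. miR-485-5p, miR-34c-5p and miR-320-3p are named without a sequence.

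The 4 libraries held between 3674297 and 7657222 accepted reads, of which 1067773 (untreated 1), 1754739 (0.5 h 1), 4282033 (untreated 2) and 3896203 (0.5 h 2) matched an annotated miRNA hairpin. Tags of 18 or 19 nt made up 51.4% of the miRNA counts in untreated library 1, 7.12% in its 0.5 h partner, and 1.69% and 1.16% in the second pair. Untreated library 1 thus stands apart from the other 3 by the shortness of its tags. The longest deposited tag was 34 nt in this library and 30 nt in every other library of the first course, its 0.5 h partner included. In all libraries of the second course it was 34 nt. By this measure untreated library 1 was unlike the rest of its course and like the second course. The part of this in the first-pair ratios was not tested. Each arm is given below in CPM, counts relative to the library total, scaled by TMM, a factor that aligns the bulk of the arms between libraries. The neuronal markers miR-124, miR-128 and miR-9 summed to 198349 CPM in untreated library 1 and 109832 at 0.5 h, and to 116750 and 91972 CPM in the second pair. Neuronal miRNA was thus abundant in all 4 libraries and its sum was lower at 0.5 h in both pairs. The single arms did not share this direction. Of the 6, 2 were higher in both pairs, against 27.9% of all 470 arms, and none was lower in both, against 21.3%. In the first pair 5 of the 6 arms were higher, while miR-124-3p went from 171282 to 31205 CPM. In the second pair 3 of the 6 were higher, miR-124-3p among them, while miR-128-3p went from 77666 to 45006 CPM. The part of neuronal miRNA in the changes of the members was not tested.

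**Figure D1:**
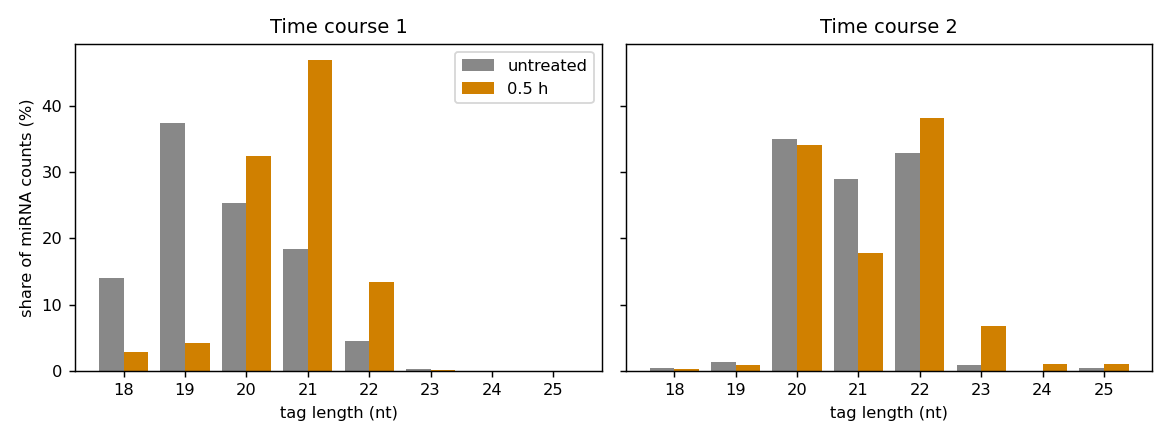
Share of miRNA counts (y axis, %) by tag length (x axis, nt) in the 2 untreated (grey) and the 2 libraries taken at 0.5 h (orange), 1 panel per time course and 1 library per bar. In time course 1 the untreated library peaks at 19 nt with 37.4% and its partner at 21 nt with 47.0%, while both libraries of time course 2 hold most counts between 20 and 22 nt.

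Across the 470 arms the change from untreated to 0.5 h in the first pair did not follow that in the second. Pearson's r between the log2 ratios of the pairs was −0.03 and Spearman's rho was −0.0008, a description over arms, which are not independent replicates and share their libraries. The ratios spread more widely in the first pair (SD 2.21 on the log2 scale) than in the second (SD 1.23). The median ratio of all arms was 0.29 in the first pair and −0.02 in the second. Scaled by the total miRNA count it was −0.02 and 0.05. Going from TMM to total counts moved every ratio by −0.45 in the first pair and by 0.09 in the second, so first-pair increases of up to about 0.45 on the log2 scale turn with the scaling. Past 2-fold in both pairs lay 39 arms that were higher (8.3% of the arms tested), 27 that were lower (5.74%) and 67 that moved in opposite directions (14.3%). Of the 170 arms with a mean of 100 CPM or more, 91 moved in the same direction, 61 upwards and 30 downwards. At the edge of the selection stood miR-9-3p, inside with log2 ratios of 2.17 and 0.0047, and miR-342-5p, outside with 0.67 and −0.0022.

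**Figure D2:**
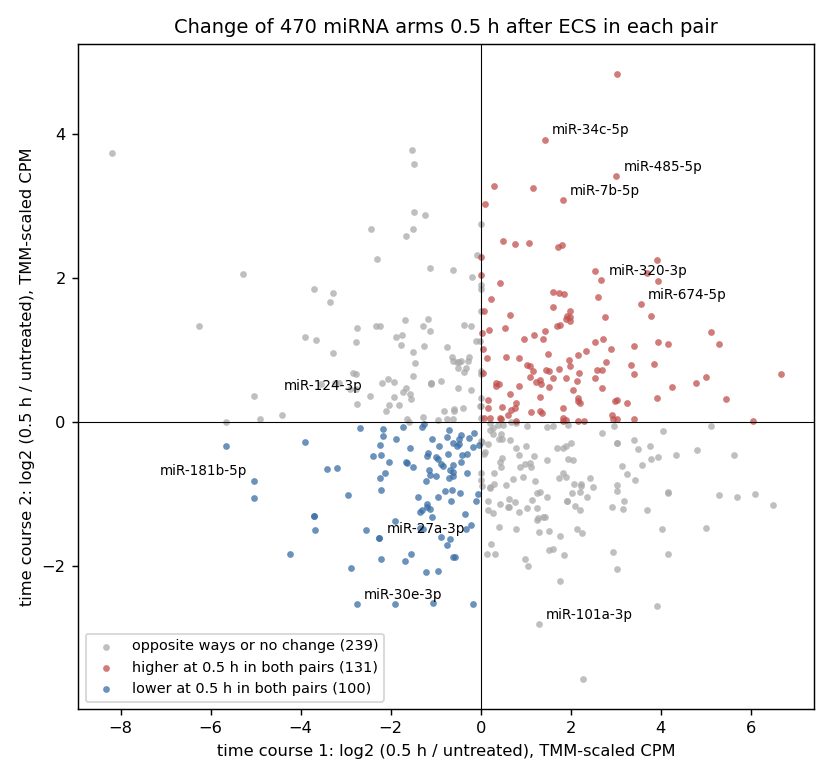
Log2 ratio of 0.5 h to untreated in time course 1 (x axis) and time course 2 (y axis), 1 point per arm, for 470 arms, red where the arm was higher at 0.5 h in both pairs (131), blue where it was lower in both (100) and grey otherwise (239). The cloud has no slope (r = −0.03) and is wider along the axis of time course 1.

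A test across all arms asked whether any single arm differed beyond the spread between libraries. With edgeR's quasi-likelihood test, fitted to all 12 libraries with time point and time course as terms, no call was made (0 of 470 arms, 0% called, at an adjusted p under 0.05), and the smallest adjusted p was 0.687. Before adjustment 26 arms (5.53%) had a p under 0.05, of which 14 were higher (2.98%) and 12 lower (2.55%) at 0.5 h. Of these 26, 24 belong to the 231 arms that moved in the same direction, which are 49.1% of all arms. The fitted change rests on the same pairs that define the 231 arms, so this overlap is largely set by the selection. DESeq2 with the same terms called 2 arms, miR-485-5p (log2 change 3.31, adjusted p = 0.0095) and miR-181b-5p (−3.65, adjusted p = 0.0362), and had 55 arms at an unadjusted p under 0.05. On counts simulated from these libraries edgeR called 30 of 100 arms changed 8-fold and 9 of 100 changed 4-fold, and DESeq2 called 67 and 34. Of 270 unchanged arms edgeR called 1 and DESeq2 called 7. Changes of these sizes could therefore be missed. The 2 calls of DESeq2 come from a test that, on these simulated counts, called more of the changed and more of the unchanged arms. No statement that follows passed edgeR's adjusted test, and "higher" and "lower" describe the 4 libraries.

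The members with the largest concordant change are described first, namely the 12 higher and 12 lower arms with a mean of at least 100 CPM whose smaller ratio of the 2 pairs was largest. Both 0.5 h libraries lay above both untreated libraries for 10 of the 12 higher arms and below both for 8 of the 12 lower arms. Over all 470 arms such separation was found for 63 arms upwards (13.4%) and 49 downwards (10.4%). The 24 arms were chosen for their ratios in these same 4 libraries, so neither this separation nor their p-values are independent of the choice.

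**Figure D3:**
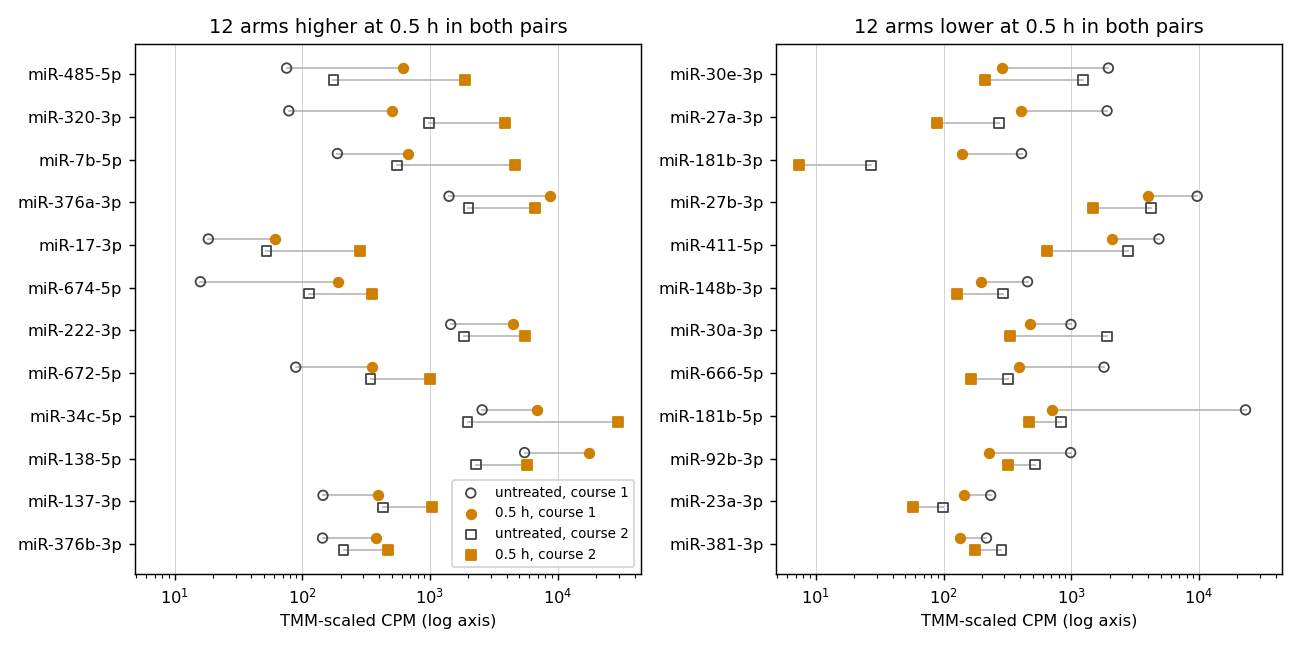
Level of the 24 arms in TMM-scaled CPM (x axis, log scale) in the untreated (open) and 0.5 h (filled) libraries of time course 1 (circles) and time course 2 (squares), with a grey line joining each pair. miR-485-5p, at the top on the left, goes from 75.4 to 611 and from 175 to 1871 CPM, and for miR-181b-5p on the right untreated library 1 lies alone at 23136 CPM.

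The arm with the largest concordant change was miR-485-5p, from a hairpin in an exon of the noncoding transcript Mirg (GRCm38, chr12:109734902-109734974, plus strand) inside the imprinted miR-379/410 cluster. miR-485 is known in hippocampal neurons for limiting the number of dendritic spines and for targeting the synaptic vesicle protein SV2A. The level was 75.4 CPM in untreated library 1 and 611 at 0.5 h, an 8.08-fold difference, from 123 and 1198 counts. In the second pair it was 175 and 1871 CPM, a 10.7-fold difference. Both 0.5 h libraries therefore lay well above both untreated libraries. The fitted log2 change was 3.28 ± 0.91 (SE), with an edgeR adjusted p of 0.687 and an unadjusted p of 0.00277, the smallest of all arms. The 3′ arm of the same hairpin did not follow, with 252 and 626 CPM in the first pair and 951 and 482 in the second.

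Of the other activity-linked miRNAs, miR-138-5p and miR-137-3p also stood among the 12. miR-138, which is enriched in brain and known to restrain spine growth, had 5499 and 17700 CPM in the first pair and 2285 and 5745 in the second. The 0.5 h library of the second course lay only slightly above the untreated library of the first, so the groups were separated only narrowly. The fitted log2 change was 1.49 ± 0.77 (SE), with an unadjusted edgeR p of 0.0732. miR-137-3p, known for control of presynaptic vesicle release and of neuronal maturation, had 145.2 and 389 CPM, then 429 and 1028 CPM. For this arm the groups overlapped, since untreated library 2 lay above 0.5 h library 1.

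The pair miR-132 and miR-212, which share a hairpin cluster on chromosome 11 and are classical targets of the activity-dependent factor CREB, showed small or discordant differences. miR-132-3p had 55.1 and 77.5 CPM in the first pair and 74.1 and 72.1 in the second. miR-132-5p was lower in both pairs, with 263 and 195, then 125 and 110 CPM. miR-212-5p was higher in both, with 264 and 660 CPM and with 1364 and 2031 CPM, whereas miR-212-3p was lower in the first pair and higher in the second. miR-134-5p, which restrains dendritic spine size, had 813 and 541 CPM, then 145 and 164 CPM. In all, 5 of the 11 tested activity-linked arms were higher in both pairs, 1 was lower and 5 moved in opposite directions. Over all 470 arms 27.9% were higher in both pairs and 21.3% lower. The median log2 ratios were 1.31 and 0.31 for the list, and 0.29 and −0.02 for all arms. The list was chosen with earlier results of these data known. It also holds miR-485-5p, miR-138-5p and miR-137-3p, which were named for their ratios. These values therefore describe the list and test nothing.

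The miR-34 family, whose members are transcriptional targets of p53 and share their seed with the miR-449 family, contributed the most abundant of the 12 higher arms. miR-34c-5p (hairpin at chr9:51103034-51103110, minus strand, outside any gene annotated on that strand) had 2557 and 6881 CPM in the first pair. In the second pair it had 1965 and 29737 CPM, a 15.1-fold difference, so the size of the change differed widely between the courses. Both 0.5 h libraries exceeded both untreated libraries. The fitted log2 change was 2.80 ± 0.92 (SE), with an unadjusted edgeR p of 0.00854. miR-34b-5p comes from the neighbouring hairpin (chr9:51103562-51103645, minus strand) and was scarcer, with 18.99 and 42.8 CPM, then 12.6 and 122 CPM, and an unadjusted p of 0.0157. The related miR-34a-5p, which shares the seed of miR-34b-5p, was lower in the first pair and higher in the second, with 14, 3, 16 and 40 counts in untreated 1, 0.5 h 1, untreated 2 and 0.5 h 2.

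The miR-7 family shares the seed GGAAGAC and is known as a family abundant in neuroendocrine tissue that targets the transcript of alpha-synuclein. miR-7b-5p (chr17:56242988-56243098, plus strand, outside annotated genes of that strand) had 188 and 667 CPM in the first pair and 550 and 4648 in the second, differences of 3.54-fold and 8.44-fold. miR-7-5p, which is cut from hairpins on chromosomes 7 and 13, one of them in an intron of Hnrnpk, had 901 and 1904 CPM, then 1835 and 10262 CPM. In both arms the 0.5 h libraries lay above the untreated libraries, and both were highest at 0.5 h among the 6 libraries of the second course. The unadjusted edgeR p was 0.0361 for miR-7b-5p and 0.0528 for miR-7-5p. The opposite strands were scarce and moved the other way, miR-7-3p with 17.8 and 14.3 CPM, then 12.3 and 7.42 CPM.

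miR-221 and miR-222 lie within 1 locus of chromosome X (miR-222 at chrX:19146893-19146971, minus strand) and share a seed known to target the cell cycle inhibitor p27. miR-222-3p had 1451 and 4448 CPM in the first pair and 1839 and 5564 in the second, about 3-fold in both (3.07 and 3.02). This was the most even change between the courses among the 12 higher arms. miR-221-3p had 915 and 925 CPM, then 951 and 4655 CPM, so that its difference came from the second pair. Its first-pair increase was smaller than the log2 shift of 0.45 between TMM and total counts. Whether both members of this seed count as higher in both pairs therefore turns with the scaling.

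The other 6 arms of the 12 belong to several genomic loci. miR-320-3p (chr14:70443510-70443591, plus strand), whose hairpin is processed without Drosha, had 78.4 and 503.6 CPM, then 983 and 3848 CPM, and here untreated library 2 lay above 0.5 h library 1. miR-674-5p had 15.9 and 190 CPM, then 113 and 353 CPM, from 26 counts in untreated library 1. miR-672-5p, from an intron of the X-linked gene Nexmif, had 88.8 and 353 CPM, then 343 and 997 CPM. For miR-672-5p the highest untreated and the lowest 0.5 h value lay side by side, at 343 and 353 CPM.

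miR-17-3p is usually the minor strand of a hairpin in the miR-17-92 cluster, a locus known for growth control. It had 18.4 and 60.7 CPM, then 52.3 and 282 CPM. miR-376a-3p and miR-376b-3p come from neighbouring hairpins of the miR-379/410 cluster (chr12:109723781-109723848 and chr12:109723458-109723539, plus strand). miR-376a-3p had 1407 and 8619 CPM, then 1997 and 6657 CPM, and miR-376b-3p had 144 and 377 CPM, then 210 and 467 CPM. With only tags of 20 nt or longer, miR-376b-3p was lower in the first pair (log2 ratio −0.46) and higher in the second (1.07).

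Among the lower arms miR-30e-3p had the largest concordant change. Its hairpin lies in an intron of Nfyc (chr4:120772606-120772697, minus strand), and this arm is the less usual strand of a family known for broad expression. It had 1953 and 290 CPM in the first pair and 1234 and 213 in the second, which is 6.74-fold and 5.8-fold lower. Both 0.5 h libraries lay far below both untreated libraries. The fitted log2 change was −2.68 ± 1.02 (SE), with an edgeR adjusted p of 0.687 and an unadjusted p of 0.0195. The paralogue miR-30a-3p had 994 and 478 CPM, then 1910 and 333 CPM. The 5′ arm of the miR-30e hairpin moved in opposite directions, with 1544 and 552, then 99.0 and 749 CPM.

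The miR-27 arms share a seed known to act in fat cell formation and blood vessels. miR-27a-3p (chr8:84208672-84208758, plus strand) had 1906 and 401 CPM in the first pair and 271 and 88.2 in the second, 4.76-fold and 3.07-fold lower. Here 0.5 h library 1 lay above untreated library 2, so the groups overlapped. miR-27b-3p (chr13:63300712-63300784, plus strand, in an exon of 2010111I01Rik) had 9670 and 3979 CPM, then 4191 and 1487 CPM. miR-23a-3p, from the same locus as miR-27a, had 234 and 144.8 CPM, then 99.5 and 57.8 CPM, again with overlapping groups.

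miR-181b-5p, from hairpins on chromosomes 1 and 2 and known in lymphocytes and neurons, had 23136 CPM in untreated library 1 and 708 at 0.5 h. In the second pair it had 831 and 470 CPM. It was 32.7-fold lower in the first pair and 1.77-fold lower in the second, and the first value rests on untreated library 1, since the other 11 libraries lay between 470 and 1702 CPM. The log2 change was −3.61 ± 1.09 (SE) with an unadjusted edgeR p of 0.00502, and −1.04 without untreated library 1. Tags of 18 or 19 nt made up 96.3% of its counts in that library and 16.7% in 0.5 h library 1. The opposite arm, miR-181b-3p, had 408 and 140 CPM, then 27.2 and 7.42 CPM, lower within each course but overlapping between them.

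Of the remaining lower arms, miR-411-5p, miR-666-5p and miR-381-3p belong to the miR-379/410 cluster. miR-411-5p had 4856 and 2098 CPM, then 2771 and 648 CPM. miR-666-5p had 1805 and 387 CPM, then 318 and 164 CPM, and its groups overlapped. miR-381-3p changed least of the 12, by 1.6-fold in both pairs, from 217 to 136 and from 283 to 177 CPM.

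The last arms of the 12 come from other loci. miR-148b-3p, from an intron of Copz1, had 455 and 198 CPM, then 291 and 128.5 CPM, and its fitted log2 change of −1.19 became 0.09 when untreated library 1 was left out. miR-92b-3p, known in cortical progenitors, had 989 and 226 CPM, then 519 and 317 CPM. With only tags of 20 nt or longer the first-pair difference of 3 of these 12 arms turned, with log2 ratios of 0.07 for miR-27b-3p, 0.26 for miR-30a-3p and 0.20 for miR-666-5p. In untreated library 1 tags of 18 or 19 nt made up 93.7%, 92.2% and 98.7% of the counts of these 3 arms. How much of the first-pair change follows from tag length was not tested.

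The 6 arms with the smallest unadjusted p also included 2 scarce ones. miR-3535-5p, whose hairpin overlaps the snoRNA Gm24148 within Ncl, so that fragments of that RNA cannot be told apart from a miRNA, had 197, 18, 25 and 8 counts in untreated 1, 0.5 h 1, untreated 2 and 0.5 h 2. miR-3064-5p, from an exon of Ddx5, had 1, 24, 0 and 3 counts. These counts are too low for the level to carry weight.

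The groups of related miRNAs are described next, as lists chosen with earlier results of these data known. Over all 470 arms 27.9% were higher in both pairs and 21.3% lower. In the miR-29 family, known in mature neurons and in glia, 4 of 6 tested arms were higher in both pairs and none was lower in both, with median log2 ratios of 1.18 and 1.18. Its main arm, miR-29a-3p, had 9893 and 67681 CPM, then 53781 and 95285 CPM, and miR-29c-3p had 359 and 1827 CPM, then 2092 and 4133 CPM. For miR-29c-3p untreated library 2 lay above 0.5 h library 1, whereas for miR-29a-3p the groups did not overlap. No arm of the family passed the adjusted test and 1, the scarce miR-29a-5p, had an unadjusted edgeR p under 0.05.

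In the miR-17-92 and miR-106b-25 clusters, which encode growth-linked miRNAs with related seeds, 6 of 11 tested arms were higher in both pairs, 2 were lower and 3 were not concordant, with medians of 0.76 and 0.81. miR-106b-5p, from an intron of Mcm7, had 88.2 and 171 CPM, then 162 and 357 CPM. miR-25-3p from the same gene had 116 and 263 CPM, then 570 and 410 CPM. At the unadjusted level 2 arms of these clusters passed, miR-17-3p and miR-93-5p.

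The miR-181 family had 3 of 7 arms lower in both pairs and none higher, with medians of −1.72 and −0.07, so its difference lay in the first pair. Its most abundant arms were miR-181b-5p, given above, and miR-181a-5p, with 16834 and 791 CPM, then 2161 and 2313 CPM. Of the miR-30 family 1 of 10 arms was higher, 2 were lower and 7 were not concordant. The let-7 family, abundant miRNAs of differentiated cells, had 3 of 16 listed arms higher, 5 lower and 8 not concordant. The list leaves out miR-7k-5p, whose mature sequence has the let-7 seed. Among the listed let-7 arms the strands parted, in that let-7b, let-7c and let-7i were higher on the 5′ arm and lower on the 3′ arm in both pairs.

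The miR-379/410 cluster, the largest group with 52 tested arms from 1 imprinted locus on chromosome 12, had 16 higher, 14 lower and 22 not concordant. Its medians were 0.53 in the first pair and −0.40 in the second. The 5 tested arms from the intron of the serotonin receptor gene Htr2c were all lower in the first pair and all higher in the second. Of these, miR-448-3p had 3645 and 245 CPM, then 399 and 907 CPM. Among the neuron-enriched arms 2 of 12 were higher, 1 was lower and 9 were not concordant, and among the inflammation-linked arms 2 of 4 were higher and none was lower in both. In the latter group miR-21a-5p, which reacts to injury in many tissues, had 643 and 2142 CPM, then 2990 and 4958 CPM, and miR-146b-5p had 49.0 and 55.1 CPM, then 232 and 286 CPM.

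**Figure D4:**
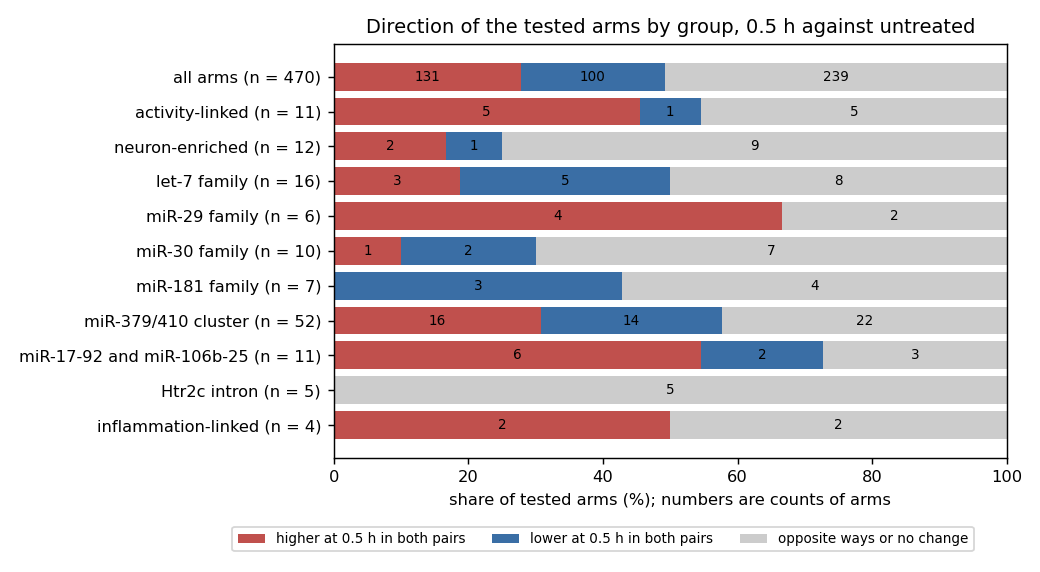
Share of the tested arms of each group (x axis, %) that were higher at 0.5 h in both pairs (red), lower in both (blue) or neither (grey), with the number of arms in each bar. Of all 470 arms 131 were higher and 100 lower, of the 6 miR-29 arms 4 were higher and none lower, and of the 5 Htr2c arms none was concordant.

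The 10 most abundant arms together held between 59.7% and 69.2% of the miRNA counts of a library. Of these, let-7c-5p, miR-29a-3p and miR-1839-5p were higher in both pairs and miR-140-3p was lower. let-7c-5p had 16940 and 75850 CPM, then 75344 and 95025 CPM. miR-1839-5p, whose hairpin is also annotated as a small Cajal body RNA, had 2828 and 26916 CPM, then 24452 and 29190 CPM. miR-140-3p, from the gene Wwp2, had 17698 and 16430 CPM, then 17459 and 8143 CPM.

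The most abundant neuronal miRNA of many brain data sets, miR-124-3p, was lower in the first pair and higher in the second, with 171282 and 31205 CPM, then 28896 and 37074 CPM. The value of untreated library 1 stood apart from the other 3. miR-128-3p had 17496 and 58134 CPM, then 77666 and 45006 CPM. let-7f-5p had 66255 and 73825 CPM, then 220447 and 177246 CPM, and let-7g-5p had 10593 and 43919 CPM, then 204918 and 141231 CPM. miR-101a-3p had 36413 and 89021 CPM, then 39291 and 5568 CPM, and miR-143-3p had 40984 and 62249 CPM, then 17757 and 7813 CPM.

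The 0.5 h libraries were also compared with the mean of the 4 later time points. edgeR's test with the same terms called 0 of 470 arms (smallest adjusted p = 0.998), with 13 at an unadjusted p under 0.05 (2.77%). This comparison shares the 0.5 h libraries for which the members were chosen, so likeness of direction is partly set by the choice and is given as a description. Of all 470 arms 272 were higher and 198 lower than at the later times. The 12 higher arms all lay above the later times, 5 of them at an unadjusted p under 0.05, namely miR-485-5p, miR-34c-5p, miR-17-3p, miR-674-5p and miR-672-5p. Of the 12 lower arms 11 were also lower than later, none at that level, the exception being miR-381-3p (log2 difference 0.06). For miR-485-5p the log2 difference from the later times was 1.52 ± 0.62 (SE) and for miR-34c-5p it was 1.66 ± 0.62 (SE).

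The courses differed in where the 0.5 h library stood. In the second course 0.5 h was the highest of the 6 libraries for 8 of the 12 higher arms and the lowest for 10 of the 12 lower arms, while over all 470 arms it was the highest for 77 (16.4%) and the lowest for 84 (17.9%). The arms were chosen for these 0.5 h values, which favours an extreme position. In the first course it was the highest for none and the lowest for 3, against 53 (11.3%) and 36 (7.66%) over all arms, while untreated library 1 was the lowest for 7 of the 12 higher arms and the highest for 9 of the 12 lower arms. The 0.5 h library of the first course was most like its 24 h library, with an r of 0.989 between their log2 levels over 470 arms against 0.882 with untreated library 1. All 12 higher arms were above untreated library 1 at 24 h as well, and all 12 lower arms were below it. These 2 libraries also shared low shares of tags of 18 or 19 nt, 7.12% at 0.5 h and 4.54% at 24 h, against 13.5% to 51.4% in the other 4 libraries of the course. The part of this likeness in the change at 0.5 h was not tested.

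Patterns over time can be read from single arms. miR-7b-5p in the second course had its highest level at 0.5 h, 4648 CPM, and then 2430, 1385, 908 and 505 CPM at 1, 3, 6 and 24 h. The first course differed, with 188 CPM untreated, 667 at 0.5 h, then 135, 137, 273 and 890 CPM, the highest level being at 24 h. miR-34c-5p in the second course had 29737 CPM at 0.5 h, between 1995 and 4786 CPM at 1 to 6 h, and 24138 CPM at 24 h. In the first course miR-34c-5p varied between 2013 and 8931 CPM after ECS, with the highest value at 3 h.

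**Figure D5:**
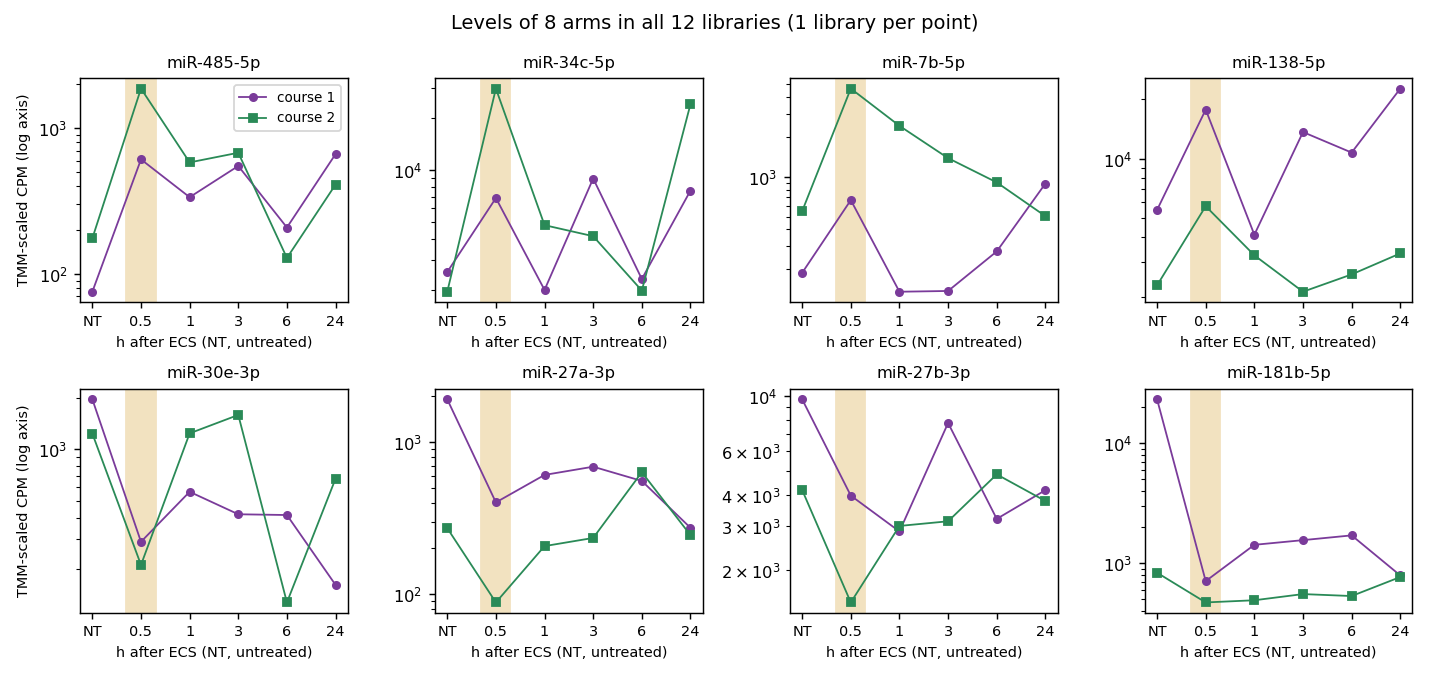
Levels of 8 arms in TMM-scaled CPM (y axis, log scale) in the untreated library (NT) and at each time after ECS (x axis, h, not to scale), for time course 1 (purple circles) and time course 2 (green squares), 1 library per point, with the 0.5 h libraries shaded. In time course 2 miR-485-5p (1871 CPM) and miR-7b-5p (4648 CPM) peak at 0.5 h, and for miR-181b-5p only untreated library 1 departs from the range of 470 to 1702 CPM.

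Markers of other cell types were read from the same libraries, since in bulk tissue fewer cells of a type and less RNA per cell cannot be told apart. As a reference for the counts of arms below, 27.9% of all 470 arms were higher in both pairs and 21.3% lower. The oligodendrocyte markers miR-219a and miR-338 summed to 1784 and 6792 CPM in the first pair and 9182 and 15698 in the second. Nearly all of this sum was miR-219a-3p, with 1670 and 6571, then 9034 and 15476 CPM. Of the 4 tested arms of these markers 3 were higher in both pairs, while miR-338-5p had 15.9 and 68.8, then 30.3 and 13.2 CPM. The blood cell markers miR-144, miR-451a and miR-486 summed to 1303 and 613 CPM, then 207 and 179 CPM, a sum that was lower at 0.5 h in both pairs. The single arms did not share this direction, since 1 of 5 was higher in both pairs and none was lower in both. In the first pair 4 of the 5 arms were higher, while miR-144-3p went from 1251 to 443 CPM. In the second pair 2 of the 5 were higher, miR-144-3p among them. The vessel markers miR-126a, miR-143 and miR-145a summed to between 8027 and 62629 CPM, with 1 of 6 higher and 2 lower. The choroid plexus markers miR-204, miR-448 and miR-1298 summed to 4279 and 506 CPM, then 527 and 1195 CPM, with 1 of 5 arms higher and 1 lower.

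Of the leukocyte and microglia markers miR-142 and miR-223, only miR-142-5p was tested, with 5426 and 2242 CPM, then 618 and 647 CPM. The other arms were nearly absent. In untreated 1, 0.5 h 1, untreated 2 and 0.5 h 2, miR-142-3p had 0, 0, 4 and 1 counts. In the same order miR-223-3p had 0, 0, 2 and 1 counts and miR-223-5p had 0, 0, 2 and 3. The signal of these markers thus rests on 1 arm. The muscle markers summed to between 1689 and 18544 CPM, nearly all of it miR-1a-3p, and miR-133a-3p had 2 counts or fewer. The liver marker miR-122-5p had 24.5 and 217 CPM, then 209 and 137 CPM. The part of these cell types in the changes of the members was not tested.

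The arms of a hairpin were compared with each other, where 27.9% of all 470 arms were higher in both pairs and 21.3% lower. Whether the arms of a hairpin move together more or less often than these shares alone would give was not tested. Of the 141 hairpins with both arms tested, both arms were higher in 9, both were lower in 6, and 1 arm was higher and the other lower in 20. Among these, miR-17, whose 5′ arm had 12.9 and 21.9 CPM, then 6.15 and 35.2 CPM, had both arms higher. miR-411, whose 3′ arm had 234 and 31.6 CPM, then 34.4 and 8.22 CPM, and miR-148b had both arms lower.

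Seeds were shared by at least 2 tested arms in 38 cases, which covered 102 arms. By comparison, 27.9% of all 470 arms were higher in both pairs and 21.3% lower. Whether arms with a shared seed move together more often than these shares alone would give was not tested. For 7 of the 38 seeds every arm was higher in both pairs, and for 5 every arm was lower. The former were those of miR-7, miR-221/222, miR-29, miR-103/107, miR-26, miR-329/362 and the pair miR-377-5p and miR-672-5p. The latter were those of miR-27, the 3′ arms of miR-30a and miR-30e, the 5′ arms of miR-148a and miR-148b, the 3′ arms of miR-379 and miR-411, and the pair miR-326-3p and miR-330-5p. The let-7 seed alone held arms of both directions. Paralogues with near-identical sequences share tags, which were split equally between them, so likeness between such paralogues is partly set by the counting. With only tags that match 1 miRNA all 24 arms described first kept their direction in both pairs. The other arms of these seeds were not examined singly in this way. The GC content of the mature sequence was alike, with a median of 45.45% for the 114 higher arms with a sequence, 47.83% for 83 lower arms and 47.83% for the 202 others.

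Together the 231 arms held 37.6% of the counts of the 4 libraries. The 131 higher arms made up 12.2% of the miRNA counts in untreated library 1 and 35.6% in its 0.5 h partner, and 26.4% and 45.6% in the second pair. The 100 lower arms made up 13.7% and 4.15%, then 4.19% and 2.04%. Their short tags differed as well, in that tags of 18 or 19 nt made up a median of 71.5% of the counts of a lower arm and 52.9% of a higher arm in untreated library 1, and 4.73% and 1.14% in untreated library 2. Over the 293 arms with 10 or more counts in each of the 4 libraries, the share of these short tags in untreated library 1 had an r of −0.29 with the first-pair log2 ratio and of 0.03 with the second-pair ratio, a description across arms. Of the same 293 arms 144 were concordant (49.1%), and 23 of the 231 arms had a count of 0 in at least 1 of the 4 libraries.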

How the data were processed

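The authors extracted hippocampal RNA with Trizol, cut the size range of miRNAs from a gel, prepared libraries with the Illumina small RNA kit, sequenced them on a Genome Analyzer IIx and removed adapters with the miR-Intess pipeline. The authors deposited raw counts of each distinct tag per library, unnormalized and before alignment. Here a tag was counted where its whole length (18 nt or more) matched a GENCODE M21 (GRCm38) miRNA hairpin exactly, per arm by its midpoint, and was split equally between miRNAs and rounded. Exact matching leaves out reads with errors or added 3′ bases. Groups came from the titles.

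Counts were scaled by TMM and tested with edgeR 4.0.16 (quasi-likelihood, R 4.3.3), with time point and replicate number as terms over all 12 libraries, two-sided, with Benjamini-Hochberg adjustment. Pair ratios used CPM with a prior count of 0.5. The numbers were taken to pair libraries because deviations from the time-point means correlated in each of 15 pairs of time points (r from 0.32 to 0.79, untreated with 0.5 h 0.37). No 2 libraries of a time point agreed within sampling noise. The fits were tested on simulated counts. DESeq2 1.42.0, other scalings, filters and counting rules were alternatives.

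The members and lists were chosen with earlier results of these data known. Named were the 12 higher and 12 lower concordant arms with a mean of 100 CPM or more and the largest smaller ratio, the 10 most abundant arms, the 6 smallest p-values, all activity-linked arms, the 2 most abundant arms of other lists and the opposite arms of the 24. A few other arms were added as seed relatives or marker values after their values were seen. Each library is 1 mouse, reads carried no molecular identifiers, and the p-values measure the spread between these libraries.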

Additional observations from a re-analysis of the deposited data

How the results depend on the processing

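The counts of arms in 1 direction depend on the filter. Without a filter on low counts 358 arms moved in the same direction in both pairs, 223 of them lower, and 107 did so past 2-fold, 57 of them lower. With 10 counts in each of the 4 libraries the numbers were 148 concordant (76 higher), and 29 past 2-fold (17 higher, 12 lower). With 1.5-fold in place of 2-fold, 120 arms passed, 67 higher and 53 lower. Other scalings and counting rules left between 228 and 259 concordant arms. Higher arms made up between 47.1% and 56.1% of them, against 56.7% in the main setting. Lower arms were the more numerous by the first 18 nt (137 against 122) and with tags of 20 nt or longer (119 against 109). The arms themselves changed more than their number. Of the 131 higher and 100 lower arms, 116 and 93 stayed concordant with DESeq2 size factors, 112 and 97 with total counts, 109 and 85 with tags of 1 miRNA, 102 and 91 by the first 18 nt, and 92 and 76 with tags of 20 nt or longer. DESeq2 with the time course as a block called 2 arms. Leaving out 1 library at a time edgeR called between 0 and 1 arms, the 1 being miR-181b-5p without untreated replicate 2. Pairing the libraries by the block moved no adjusted call, since edgeR without the replicate block also called 0 arms, with 9 at an unadjusted p under 0.05 in place of 26. Counts of concordant arms cannot be formed without 1 of the 4 libraries.

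Over 14 alternatives the 69 named arms gave 956 fitted changes, of which 888 kept direction and side of the threshold and 65 on 26 arms changed sign. Of the 24 arms described first only miR-148b-3p was among them. Without the replicate block the log2 change became −0.22 for let-7g-5p, 0.32 for miR-101a-3p, −0.59 for miR-1298-5p, 0.25 for miR-143-3p, −0.0288 for miR-25-3p, −0.34 for miR-30e-5p, 5.50e-05 for miR-381-5p and −0.12 for miR-485-3p. With tags of 20 nt or longer it became 0.041 for let-7f-5p and 0.0446 for miR-132-5p, −0.40 for miR-128-3p and miR-25-3p, −0.29 for miR-1298-5p, −0.35 for miR-132-3p, 0.32 for miR-134-5p and −0.78 for miR-485-3p. Without a filter it became −0.0895 for miR-128-3p, −0.0949 for miR-30e-5p, −0.0515 for miR-132-3p, −0.0549 for miR-146b-5p, and −0.10 for miR-485-3p. miR-30e-5p also became −0.0431 with total counts, −0.0227 with 10 counts in each library, −0.0186 by the first 18 nt, and −0.16 with tags of 1 miRNA. miR-128-3p became −0.022 by the first 18 nt, miR-485-3p −0.00432 with total counts and miR-30d-5p 0.0162 with the 4 libraries alone. The cause of these turns was not tested.

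Leaving out 1 library at a time, the fitted log2 change ranged from −0.67 to 0.43 for let-7f-5p, −0.12 to 1.47 for let-7g-5p, −2.33 to 0.54 for miR-101a-3p, −2.34 to 0.0122 for miR-124-3p, −0.62 to 1.19 for miR-128-3p, −1.003 to 2.09 for miR-1298-5p, −0.0557 to 0.44 for miR-132-3p, −1.06 to 0.10 for miR-132-5p, −0.73 to 0.0816 for miR-134-5p, −1.77 to 0.57 for miR-138-3p, −1.12 to 0.16 for miR-143-3p, −0.48 to 0.60 for miR-146b-5p and −2.47 to 0.0928 for miR-148b-3p. It ranged from −1.88 to 0.26 for miR-212-3p, −0.99 to 1.09 for miR-222-5p, −0.34 to 1.03 for miR-25-3p, −1.10 to 6.03 for miR-27a-5p, −1.20 to 1.07 for miR-30a-5p, −1.24 to 1.15 for miR-30d-5p, −1.45 to 2.62 for miR-30e-5p, −0.86 to 0.31 for miR-376a-5p, −0.0451 to 1.39 for miR-376b-5p, −3.27 to 0.62 for miR-448-3p, −0.68 to 0.93 for miR-485-3p and −3.91 to 0.51 for miR-7b-3p. In such a fit the library left alone is assumed to vary like the other groups. With 1 mouse per course and time point, edgeR missed most of the 4-fold and 8-fold changes simulated.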
